A study of Chlorocebus sabaeus with 3 samples.

Results

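Levels of 10 genes of antigen presentation were read in 3 tissues of the ocular surface of the vervet monkey, the limbus, the conjunctiva, and the cornea. The genes were taken by name, as the probe sets of a human expression array whose single gene symbol is HLA-DRA, HLA-DPA1, HLA-DPB1, HLA-DMA, HLA-DMB, CD74, CIITA, B2M, TAP1, or TAPBP. A probe set is a group of short probes on the array that together give 1 value for 1 transcript. All 10 genes were found, with 22 of the 54675 probe sets on the array. The array names 19775 genes by a single symbol. The limbus sample was the rim of epithelium between the cornea and the conjunctiva with the upper part of the stroma beneath it, the conjunctiva sample included the underlying Tenon layer, and the cornea sample was the center of the cornea with the upper part of its stroma. The animals of the study were vervets aged 32 to 37 months, and the study took the tissues from the same eye. The total RNA of each tissue was amplified and hybridized to 1 array. Since each tissue has a single array, the spread between animals is unknown and no test could be run. The only internal check was whether several probe sets for 1 gene gave like ratios.

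Antigen presentation shows fragments of protein to T cells. Class II molecules are pairs of an alpha and a beta chain that carry peptides from endosomes, mainly on dendritic cells, macrophages, and B cells, and on other cells after exposure to interferon gamma. The invariant chain CD74 guides them through the cell and covers their groove, HLA-DM exchanges its remnant for peptide, and CIITA is the coactivator without which the class II genes are scarcely transcribed. Class I molecules are made by nearly all nucleated cells. They consist of a heavy chain and beta-2-microglobulin (B2M) and are loaded with peptide that the TAP transporter brings into the endoplasmic reticulum, with tapasin (TAPBP) as the bridge to the transporter. The corneal center is known as a tissue without blood vessels and with few class II positive cells, while the conjunctiva is a mucosa with resident immune cells.

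Values are intensities on a linear scale. Their median over the array was 49.0 in the limbus, 50.7 in the conjunctiva, and 48.8 in the cornea, so values of this size are close to the typical value of a probe set. Marker genes matched the tissue labels. KRT12, the keratin of corneal epithelium, measured 2633 in the limbus, 54.3 in the conjunctiva, and 8068 in the cornea, and the goblet cell mucin MUC5AC had 127 in the limbus, 1618 in the conjunctiva, and 102 in the cornea. A gene with several probe sets is represented by the one with the highest mean log2 value, called the brightest below. Ratios were taken within a probe set only, because the binding of monkey RNA to human probes differs from probe to probe. Each sample was a mixture of cells, so fewer cells of a type and less RNA per cell cannot be told apart.

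Each of the 7 class II pathway genes was lowest in the cornea (33.2% of all genes were), and 6 of them peaked in the conjunctiva (36.7% of all genes), with the limbus between. HLA-DRA, the alpha chain of HLA-DR, measured 410.1 in the limbus, 929 in the conjunctiva, and 138 in the cornea on its brightest probe set. The limbus stood 2.96-fold over the cornea and at 0.442 of the conjunctival value, and the conjunctiva exceeded the cornea 6.71-fold. The other HLA-DRA probe set had the same order, with 248 in the limbus, 759 in the conjunctiva, and 139 in the cornea. Both probe sets thus put the cornea lowest and the limbus nearer to the cornea than to the conjunctiva in linear units. In log2 units they differed. On the brightest the limbus was nearer to the conjunctiva, with log2 ratios of 1.57 over the cornea and -1.18 over the conjunctiva. On the other it was nearer to the cornea, with 0.84 and -1.61.

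HLA-DPB1, the beta chain of HLA-DP, measured 266 in the limbus, 575 in the conjunctiva, and 161 in the cornea. The conjunctiva exceeded the cornea 3.58-fold, and the limbus stood 1.66-fold over the cornea and at 0.463 of the conjunctival value. Its other probe set had 26.2 in the limbus, 21.0 in the conjunctiva, and 24.4 in the cornea, under the median of each array. HLA-DPA1, which encodes the alpha chain of the same molecule, had probe sets that differed in order. The brightest measured 289 in the limbus, 158 in the conjunctiva, and 62.5 in the cornea, and there the limbus exceeded the conjunctiva 1.83-fold. The next had 140.5 in the limbus, 272 in the conjunctiva, and 42.3 in the cornea. The dimmest had 47.4 in the limbus, 89.4 in the conjunctiva, and 16.8 in the cornea, so that the conjunctiva was again highest. On all 3 HLA-DPA1 probe sets the cornea was lowest, at least 2.53-fold below the conjunctiva and at least 2.83-fold below the limbus, whereas the higher place of the limbus was seen on 1 probe set only.

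**Figure D1:**
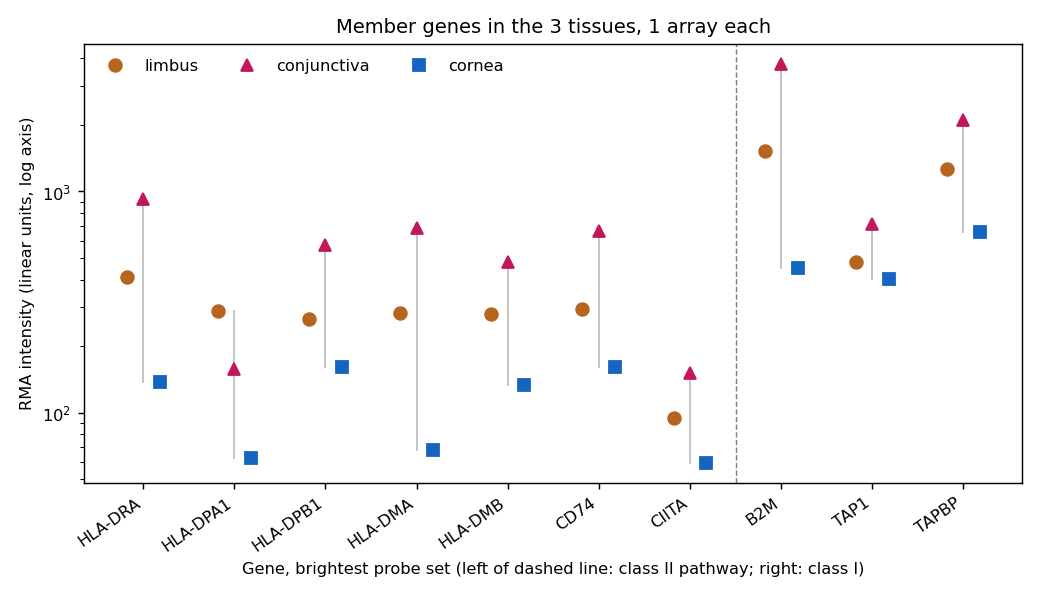
RMA intensity (linear units, log axis) of the brightest probe set of each of the 10 genes in the limbus (circles), the conjunctiva (triangles), and the cornea (squares), from 1 array each; gray lines span the lowest to the highest tissue. The cornea is lowest for every gene shown, and the conjunctiva is highest for every gene but HLA-DPA1, which had 289 in the limbus and 158 in the conjunctiva. Heights of different genes are not comparable, because their probes differ.

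The genes of the loading step had the same order of tissues. HLA-DMA, the alpha chain of the peptide exchanger HLA-DM, measured 284 in the limbus, 683 in the conjunctiva, and 68.0 in the cornea. The conjunctiva exceeded the cornea 10.04-fold, and the limbus exceeded the cornea 4.17-fold. HLA-DMB, the beta chain, had 279 in the limbus, 481 in the conjunctiva, and 133 in the cornea, with ratios to the cornea of 3.61 in the conjunctiva and 2.09 in the limbus. The difference between the conjunctiva and the cornea was therefore larger for the alpha than for the beta chain, but each was read from a single probe set and the gap was not tested.

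CD74, the invariant chain, measured 296 in the limbus, 661 in the conjunctiva, and 161 in the cornea on its brightest probe set. The conjunctiva exceeded the cornea 4.10-fold, and the limbus stood 1.83-fold over the cornea and at 0.447 of the conjunctival value. A second CD74 probe set had 89.9 in the limbus, 184 in the conjunctiva, and 93.4 in the cornea, and the third had 86.0 in the limbus, 117 in the conjunctiva, and 68.3 in the cornea. All 3 were highest in the conjunctiva, but the dimmer ones showed a smaller gap to the cornea (1.97-fold and 1.71-fold) and 1 of them had no higher value in the limbus than in the cornea.

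CIITA, the coactivator of the class II genes, measured 94.4 in the limbus, 152 in the conjunctiva, and 59.4 in the cornea on its brightest probe set. The conjunctiva exceeded the cornea 2.55-fold, and the limbus exceeded the cornea 1.59-fold. The other CIITA probe sets were near or under the array median in all tissues. They had 45.4 in the limbus, 51.1 in the conjunctiva, and 50.01 in the cornea on one, and 31.3 in the limbus, 32.9 in the conjunctiva, and 33.6 in the cornea on the other. The order of tissues for CIITA thus rests on 1 probe set, and when the median of its 3 probe sets was taken, the log2 ratio of the conjunctiva over the cornea was 0.03 in place of 1.35.

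Over the 7 class II pathway genes, the median log2 ratio was 1.07 for the limbus over the cornea, -1.11 for the limbus over the conjunctiva, and 1.85 for the conjunctiva over the cornea. Over all 19775 genes it was -0.05, -0.04, and -0.01 for the same contrasts. All 7 exceeded the cornea by 2-fold or more in the conjunctiva, compared with 5.68% of all genes. Between the limbus and the cornea 4 of the 7 were 2-fold or more above the cornea in the limbus (HLA-DRA, HLA-DPA1, HLA-DMA, and HLA-DMB), compared with 4.06% of all genes. Between the limbus and the conjunctiva 4 of the 7 were at least 2-fold lower in the limbus (HLA-DRA, HLA-DPB1, HLA-DMA, and CD74), compared with 2.31% of all genes. These shares describe the arrays and are not error rates.

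Among the class I pathway genes the same order was seen, with ratios that ranged from small to large. B2M, the light chain shared by all classical class I molecules, measured 1517 in the limbus, 3769.8 in the conjunctiva, and 449 in the cornea on its brightest probe set. The conjunctiva exceeded the cornea 8.39-fold, and the limbus stood 3.38-fold over the cornea and at 0.402 of the conjunctival value. A second B2M probe set had 295 in the limbus, 265 in the conjunctiva, and 191 in the cornea. It put the limbus highest and the conjunctiva only 1.39-fold above the cornea, so the size of the B2M difference depended on the probe set. The third had 32.3 in the limbus, 41.9 in the conjunctiva, and 38.6 in the cornea, under the array median.

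TAPBP measured 1264 in the limbus, 2106 in the conjunctiva, and 656 in the cornea, so that the conjunctiva was 3.21-fold and the limbus 1.93-fold above the cornea. A second TAPBP probe set had 68.0 in the limbus, 115 in the conjunctiva, and 73.2 in the cornea, and on the third, at 50.8 in the limbus, 34.9 in the conjunctiva, and 36.9 in the cornea, the limbus was highest. TAP1, a subunit of the peptide transporter with a single probe set, had 479 in the limbus, 712 in the conjunctiva, and 404 in the cornea. TAP1 was the member with the smallest ratios, 1.76 for the conjunctiva over the cornea and 1.19 for the limbus over the cornea, and the only one under 2-fold between the conjunctiva and the cornea. Over these 3 genes the median log2 ratio was 0.95 for the limbus over the cornea, -0.74 for the limbus over the conjunctiva, and 1.68 for the conjunctiva over the cornea.

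Counted together, 9 of the 10 genes had the order conjunctiva, limbus, cornea from high to low, compared with 20.5% of all genes. By the criterion of the study for a tissue-preferred gene, 2-fold or more above each of the other tissues, 5 of the 10 were counted for the conjunctiva (HLA-DRA, HLA-DPB1, HLA-DMA, CD74, and B2M), compared with 1.68% of all genes. None was counted for the limbus or the cornea, for which the shares of all genes were 0.475% and 1.89%. A cornea value at least 2-fold lower than in both other tissues was found for 5 of the 10 (HLA-DRA, HLA-DPA1, HLA-DMA, HLA-DMB, and B2M), compared with 2.93% of all genes. In the plot of the members among all genes, all but HLA-DPA1 lie on the conjunctival side of the line of equal limbus and conjunctiva.

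**Figure D2:**
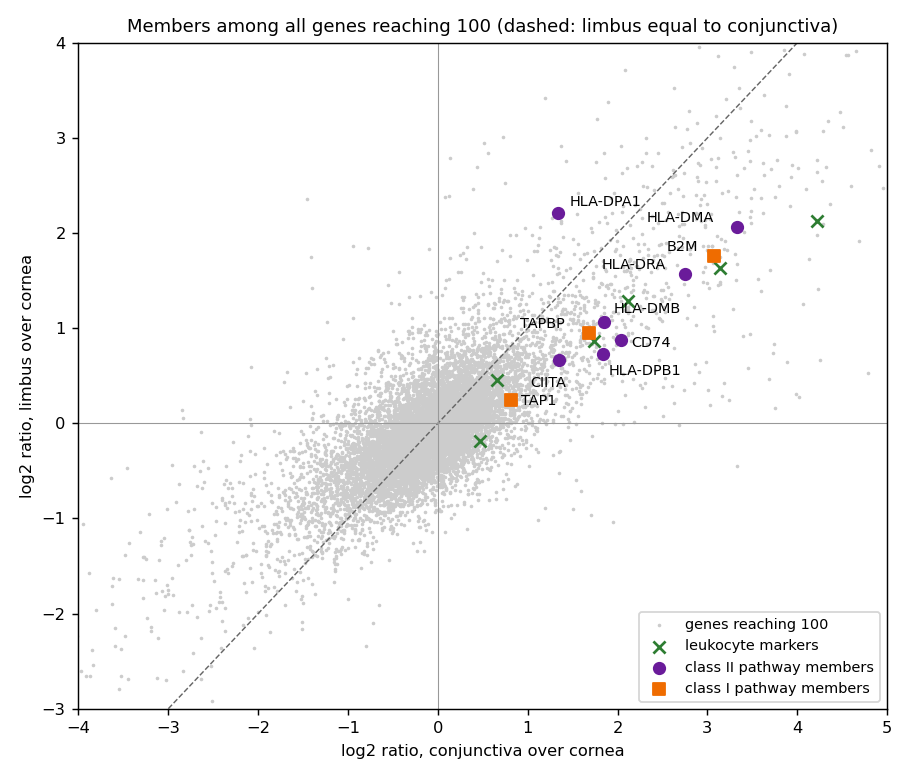
log2 ratio of the limbus over the cornea against log2 ratio of the conjunctiva over the cornea for the 11003 genes whose brightest probe set reached 100 in a tissue (gray; 49 lie outside the axes), with the class II members (circles), the class I members (squares), and 6 leukocyte markers (crosses). All 10 members lie to the right of 0 and above 0, and 9 of them lie under the dashed line on which limbus and conjunctiva are equal.

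Taken over all 22 probe sets of the 10 genes, 19 were higher in the conjunctiva than in the cornea (50.1% of all probe sets), 12 of them by 2-fold or more (3.79% of all probe sets), and 0 were 2-fold lower. Of the 22, 16 reached a value of 100 in at least 1 tissue, and the order conjunctiva, limbus, cornea was found on 12 of these (19.4% of all probe sets, dim ones included). The remaining 4 were a CD74 and a TAPBP probe set on which the limbus was slightly under the cornea, and the HLA-DPA1 and B2M probe sets on which the limbus was highest. Of the 6 probe sets that stayed under 100 everywhere, 3 were higher in the conjunctiva than in the cornea.

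**Figure D3:**
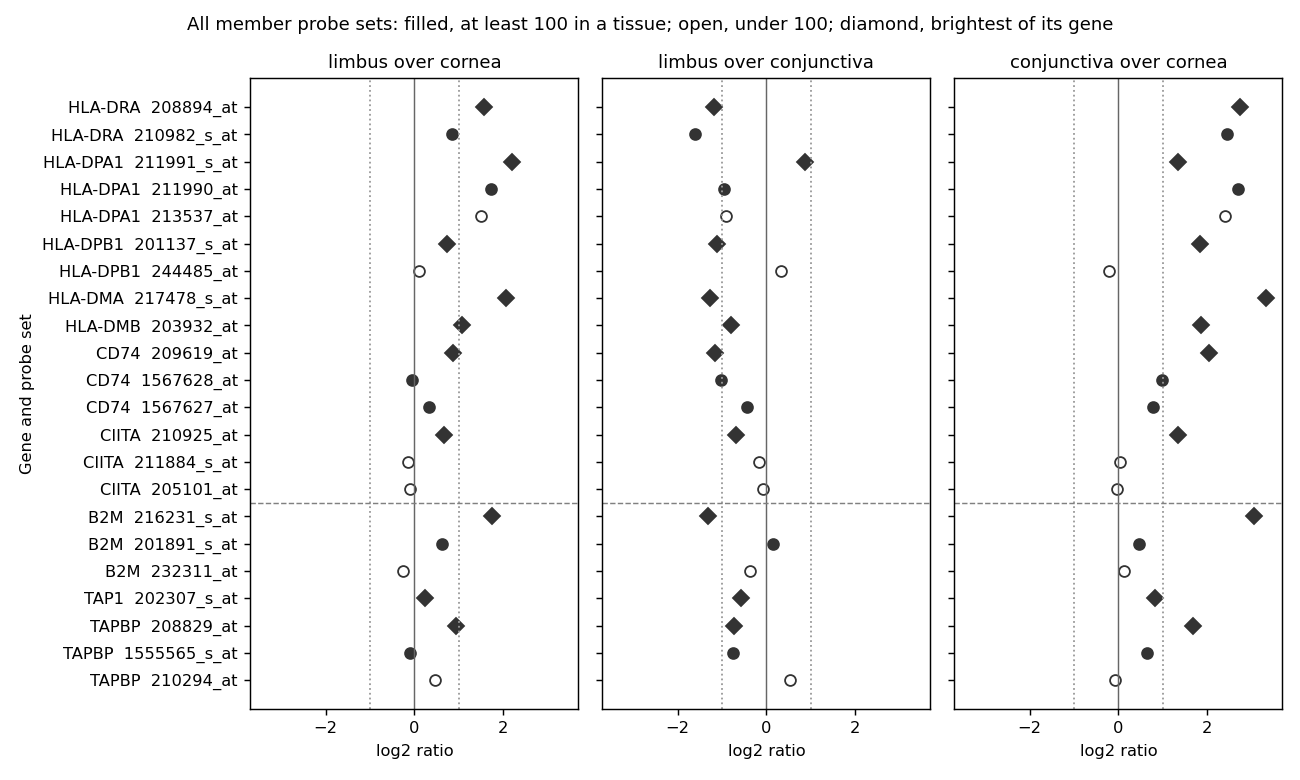
log2 ratio of the limbus over the cornea, the limbus over the conjunctiva, and the conjunctiva over the cornea for the 22 member probe sets, by gene; dotted lines mark 2-fold, and the dashed line separates the class II (above) from the class I pathway genes. Diamonds are the brightest probe set of each gene, filled symbols reached 100 in a tissue, and open symbols did not. The open symbols lie near 0 in the comparison of the conjunctiva with the cornea, except that of HLA-DPA1 at 2.41.

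The centered log2 profile over the 3 tissues was also compared among genes. The 7 class II genes were summarized by their median profile, and distance was measured over the 3 tissues among 10993 other genes that reached 100. The 5 nearest genes were LCK, a kinase of T cells, TPM1, a tropomyosin, ZEB2, a transcription factor, GRB10, an adaptor of growth factor receptors, and KCNQ1, a potassium channel. LCK, for example, measured 75.2 in the limbus, 136 in the conjunctiva, and 35.4 in the cornea. The median profile is built from the class II genes, and its limbus and cornea values are those of HLA-DMB, so the nearness of a class II gene to it is in part fixed. HLA-DPA1 was the farthest of the 7, with 3247 other genes nearer. With only 3 tissues many unrelated genes share a profile.

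Several other class II genes of the array had the same order. The probe sets named for beta chains can bind transcripts of near-identical genes, and their names are those of human genes, so they are read as class II signal and not as single genes. Of 8 such genes measured, 5 were at least 2-fold higher in the conjunctiva than in the cornea, and the median log2 ratio was 1.68. Of all genes, 5.68% passed this fold, a share that also stands beside the counts of the lists below. In the other direction 5.31% of all genes did. HLA-DQA1, an alpha chain, measured 138 in the limbus, 636 in the conjunctiva, and 21.2 in the cornea. HLA-DRB1 had 1929.6 in the limbus, 5110.2 in the conjunctiva, and 417 in the cornea. HLA-DQB1 had 459 in the limbus, 1469 in the conjunctiva, and 251 in the cornea. For these 3 genes the ratio of the limbus to the conjunctiva was between 0.217 and 0.378 on the brightest probe sets, and another HLA-DQB1 probe set had 0.459. HLA-DRB4 (277 in the limbus, 438 in the conjunctiva, and 95.5 in the cornea) and HLA-DRB6 (91.0 in the limbus, 148 in the conjunctiva, and 65.8 in the cornea) had the same order with smaller ratios of the conjunctiva over the cornea. HLA-DOA and HLA-DOB, the chains of the HLA-DM modulator HLA-DO, differed less on their brightest probe sets. HLA-DOA measured 131 in the limbus, 172 in the conjunctiva, and 138 in the cornea, and HLA-DOB 77.6 in the limbus, 70.4 in the conjunctiva, and 66.5 in the cornea. Another HLA-DOA probe set, without the suffix that marks possible cross-binding, had the order of the members, with 100.8 in the limbus, 146 in the conjunctiva, and 64.5 in the cornea. A further one, with the suffix, put the conjunctiva lowest, with 148 in the limbus, 131 in the conjunctiva, and 144 in the cornea.

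Regulators of the class II genes differed little between tissues. Of 12 measured, 1 was at least 2-fold higher in the conjunctiva than in the cornea (5.68% of all genes), and the median log2 ratio was 0.18. That gene was IRF1, an interferon-induced transcription factor, with 238 in the limbus, 332 in the conjunctiva, and 145 in the cornea. Another IRF1 probe set had 103 in the limbus, 199 in the conjunctiva, and 101 in the cornea. There the conjunctiva was 1.98-fold above the cornea. RFX5, a DNA-binding subunit of the factor that recruits CIITA, had 346 in the limbus, 446 in the conjunctiva, and 350.4 in the cornea. The kinase JAK2, which transmits the interferon gamma signal, had 339 in the limbus, 163 in the conjunctiva, and 287 in the cornea, and was the 1 regulator at least 2-fold apart between the limbus and the conjunctiva. Endosomal proteases and related genes varied in direction, with 2 of 10 at least 2-fold higher and 1 at least 2-fold lower in the conjunctiva than in the cornea and a median log2 ratio of -0.01. Cathepsin S (CTSS), which trims the invariant chain, had 279 in the limbus, 374 in the conjunctiva, and 102 in the cornea. A dimmer CTSS probe set put the limbus lowest, with 64.0 in the limbus, 106 in the conjunctiva, and 92.8 in the cornea. Cathepsin H (CTSH), an aminopeptidase, had 976 in the limbus, 1754 in the conjunctiva, and 213 in the cornea. AP1S2, a subunit of a sorting adaptor, ran the other way, with 996 in the limbus, 603 in the conjunctiva, and 1671 in the cornea. Its dimmest probe set put the cornea lowest, with 281 in the limbus, 217 in the conjunctiva, and 189 in the cornea. The remaining AP1S2 probe sets peaked in the cornea. Cathepsin F (CTSF) likewise peaked in the cornea, at 513 in the limbus, 721 in the conjunctiva, and 1043 in the cornea.

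The heavy chains of class I, the partners of B2M, were highest in the conjunctiva on every probe set that reached 100. There were 16 such probe sets for HLA-B, HLA-C, HLA-E, HLA-F, and HLA-G, of which 15 carry the suffix that marks possible binding of several transcripts, so they are read as a group. The conjunctiva was between 1.89-fold and 8.13-fold above the cornea, and the limbus was at 0.382 to 0.665 of the conjunctiva. HLA-C measured 3496 in the limbus, 8599 in the conjunctiva, and 1499.5 in the cornea on its brightest probe set. HLA-E, on the probe set without that suffix, had 456 in the limbus, 901 in the conjunctiva, and 362 in the cornea. The neonatal Fc receptor FCGRT, a relative that also pairs with B2M, had 373 in the limbus, 643 in the conjunctiva, and 249 in the cornea. Among the 15 heavy chains and relatives measured, 6 were at least 2-fold higher in the conjunctiva than in the cornea on their brightest probe sets (5.68% of all genes). These were HLA-B, HLA-C, HLA-F, HLA-G, FCGRT, and CD1A, which stayed under 100. The exceptions included HLA-E, MICA, MICB, HFE, and MR1, which were under 2-fold between any pair of tissues on their brightest probe sets. For HLA-E the conjunctiva was 1.89-fold above the cornea there. Another HFE probe set, without the suffix, measured 90.4 in the limbus, 140.5 in the conjunctiva, and 66.8 in the cornea, so that the conjunctiva was 2.10-fold above the cornea. On the HFE probe sets with the suffix that reached 100, the ratio of the conjunctiva to the cornea was 0.805 to 1.55.

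Genes that supply peptide to class I had smaller differences between tissues for the most part. Of 15 measured, 3 were at least 2-fold higher in the conjunctiva than in the cornea on their brightest probe sets (5.68% of all genes). The median log2 ratio was 0.35. These were PSMB8 and PSMB9, which are subunits of the immunoproteasome, and NLRC5, a coactivator of class I genes. PSMB8 measured 714 in the limbus, 1468 in the conjunctiva, and 327 in the cornea. PSMB9 had 623 in the limbus, 750.0 in the conjunctiva, and 344 in the cornea. NLRC5 had 177 in the limbus, 244 in the conjunctiva, and 66.0 in the cornea. In the RefSeq annotation of the vervet assembly mChlSab1.0, PSMB8 and PSMB9 are the protein-coding neighbors of TAP1 on either side, and both had a larger ratio of the conjunctiva over the cornea (4.49 and 2.18) than TAP1 (1.76).

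**Figure D4:**
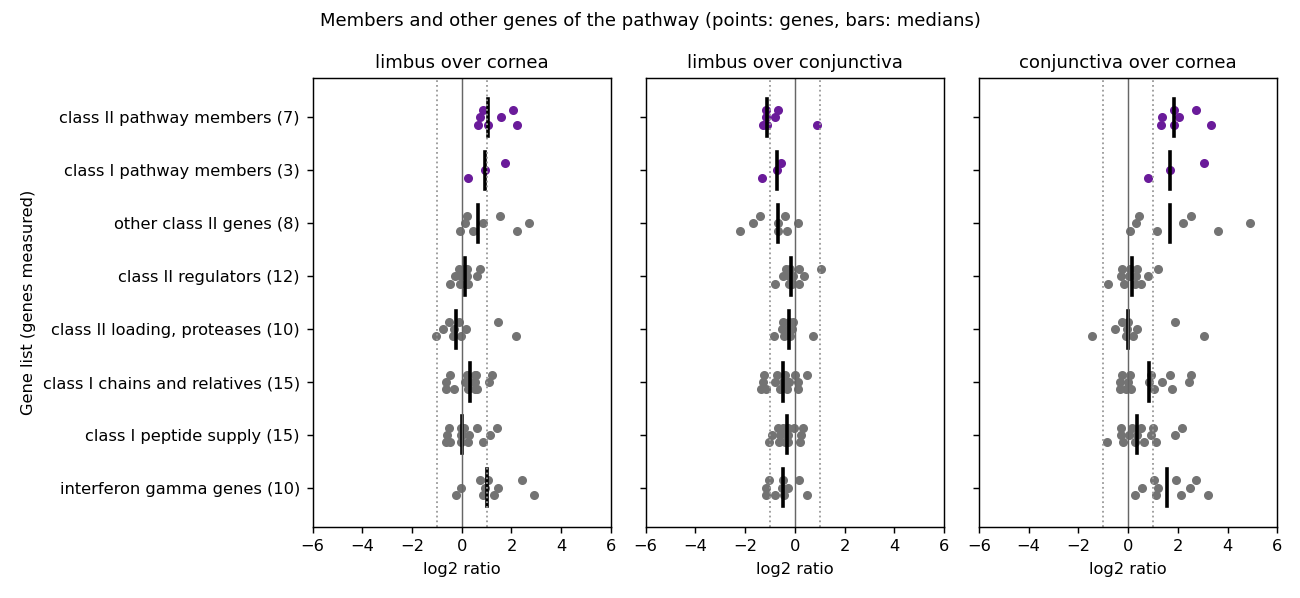
log2 ratio between tissues for the class II and class I members (purple) and for other genes of the pathway and genes raised by interferon gamma (gray), 1 point per gene from its brightest probe set; black bars are medians and the number of genes is in parentheses. The other class II genes and the interferon gamma genes have medians of 1.68 and 1.56 for the conjunctiva over the cornea, compared with 0.18 for the regulators and -0.01 for the proteases.

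Genes that interferon gamma is known to raise were also lower in the cornea for the most part. Of 10 measured, 8 were at least 2-fold higher in the conjunctiva than in the cornea (5.68% of all genes). The limbus was at least 2-fold above the cornea for 5 (4.06% of all genes). The median log2 ratios were 1.56 for the conjunctiva and 1.00 for the limbus, each over the cornea. The list shares PSMB9, IRF1, and ICAM1 with the other lists. IRF1 and ICAM1 passed 2-fold between the conjunctiva and the cornea on their brightest probe sets only. The tryptophan-degrading enzyme IDO1 measured 208 in the limbus, 357 in the conjunctiva, and 38.2 in the cornea. The chemokine CXCL10 had 331 in the limbus, 292 in the conjunctiva, and 44.3 in the cornea. CXCL9 had 80.9 in the limbus, 183 in the conjunctiva, and 42.5 in the cornea. The guanylate-binding protein GBP2 had 298 in the limbus, 408 in the conjunctiva, and 108 in the cornea. For the limbus over the conjunctiva the median log2 ratio was -0.50 in this list and -1.11 in the class II members, a difference that was not tested.

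Markers of immune cells differed between tissues too. All 6 general leukocyte markers were highest in the conjunctiva, 5 of them were lowest in the cornea, and their summed value was 917 in the limbus, 1977 in the conjunctiva, and 459.8 in the cornea. The tyrosine phosphatase PTPRC (CD45) measured 81.9 in the limbus, 352 in the conjunctiva, and 18.8 in the cornea on its brightest probe set. The actin regulator CORO1A had 203 in the limbus, 576 in the conjunctiva, and 65.6 in the cornea. For the leukocyte list the median log2 ratio was 1.07 for the limbus over the cornea, -0.85 for the limbus over the conjunctiva, and 1.93 for the conjunctiva over the cornea, which is close to the medians of the class II members given above. The part of leukocyte content in the levels of the members was not tested.

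Lists for single types of antigen-presenting cells were also read, within each list only, since levels of different probe sets are not comparable. For the same reason a sum mostly follows the brightest probe sets of its list. The median log2 ratio of the conjunctiva over the cornea was 0.84 for dendritic and Langerhans cells, 0.93 for macrophages, and 0.22 for B cells. It was 0.78 for T cells, 0.96 for plasma cells, and 1.29 for endothelium. Of 9 genes of dendritic and Langerhans cells, 2 reached 100, and the summed value was 588 in the limbus, 697 in the conjunctiva, and 459.8 in the cornea. At least 2-fold higher in the conjunctiva than in the cornea were 3 of the 9, CD1A, LAMP3, and CCR7, all under 100. CD207 (langerin), the defining marker of Langerhans cells, had 33.3 in the limbus, 34.5 in the conjunctiva, and 27.5 in the cornea, under the median of each array. Of 9 macrophage genes, 4 reached 100, with sums of 810.3 in the limbus, 1170.5 in the conjunctiva, and 612 in the cornea, and 3 were at least 2-fold higher in the conjunctiva than in the cornea, among them the mannose receptor MRC1 (79.4 in the limbus, 115 in the conjunctiva, and 23.7 in the cornea). Among 6 B cell genes, 1 reached 100, and the sums were 342 in the limbus, 418 in the conjunctiva, and 346 in the cornea. No value of any list is 0, because the normalization gives a positive value to every probe set. The 8 T cell genes summed to 626 in the limbus, 1090.9 in the conjunctiva, and 548 in the cornea. At least 2-fold higher in the conjunctiva than in the cornea were 2 of these, CD2 and CD3D. CD3D had 154 in the limbus, 378 in the conjunctiva, and 111 in the cornea. The others that reached 100, CD3E, CD4, and CD5, had smaller ratios of the conjunctiva over the cornea, 1.14, 1.02, and 1.12. CD4 was highest in the limbus, at 113 compared with 84.7 in the conjunctiva and 83.3 in the cornea. For CD3E and CD5 the limbus was lowest, at 54.4 and 94.6. The 7 plasma cell genes summed to 1738 in the limbus, 6906 in the conjunctiva, and 1849 in the cornea. Among them the immunoglobulin light chain IGLC1 had 384 in the limbus, 5164 in the conjunctiva, and 115 in the cornea. SDC1, a plasma cell marker that epithelia also make, ran the other way, with 619 in the limbus, 288 in the conjunctiva, and 1271 in the cornea. Vessel endothelium, which also can carry class II molecules in primates, had the same order in its sum, with totals over 7 genes of 1591 in the limbus, 2282 in the conjunctiva, and 506 in the cornea. On their brightest probe sets 4 of these genes were highest in the conjunctiva and 3 in the limbus. PECAM1 had 462 in the limbus, 675 in the conjunctiva, and 45.9 in the cornea there. Another PECAM1 probe set had 126 in the limbus, 148 in the conjunctiva, and 136 in the cornea. For EMCN the brightest had 223 in the limbus, 162 in the conjunctiva, and 41.6 in the cornea. Another EMCN probe set put the conjunctiva highest, with 89.1 in the limbus, 180 in the conjunctiva, and 39.0 in the cornea. The part of these cells in the levels of the members was not tested.

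**Figure D5:**
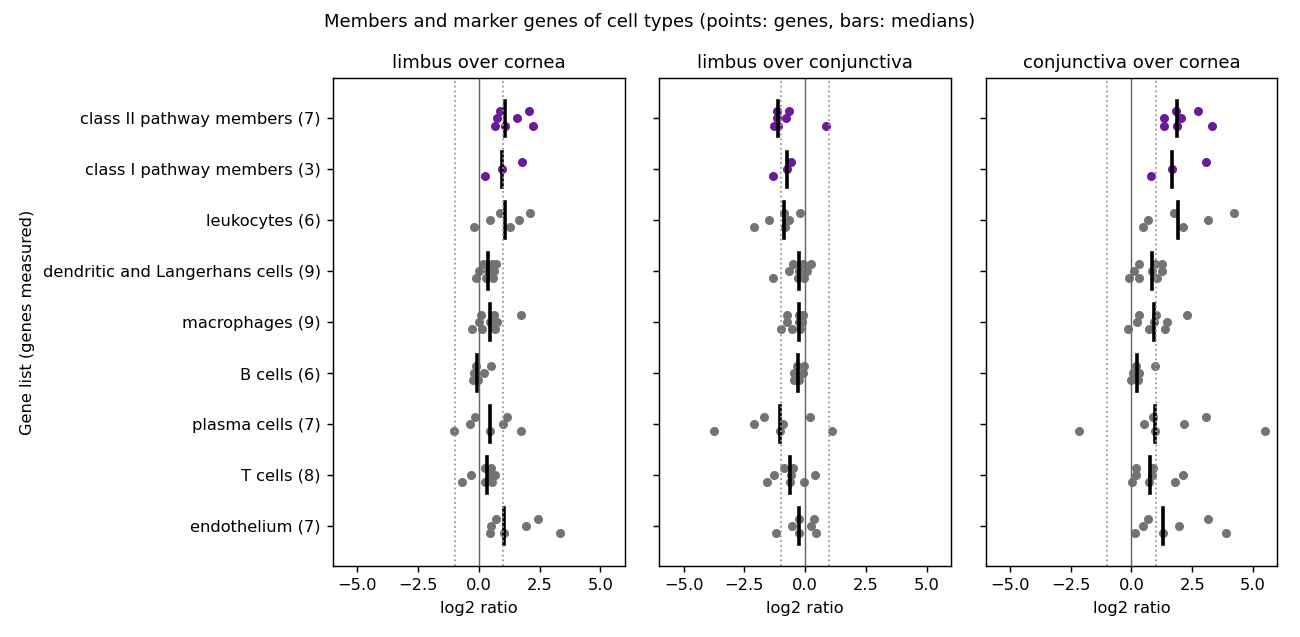
log2 ratio between tissues for the class II and class I members (purple) and for marker genes of immune cells and endothelium (gray), 1 point per gene from its brightest probe set, with medians as black bars and the number of genes in parentheses. The leukocyte list has medians of 1.07, -0.85, and 1.93 from left to right, while the B cell list has 0.22 for the conjunctiva over the cornea.

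The scale of the arrays touches the place of the limbus. The 18 hybridization control probe sets, which report labeled RNA added to the hybridization mix, had a geometric mean of 735 in the limbus, 902 in the conjunctiva, and 1128 in the cornea. With each array divided by this mean, 9 of the 10 members exceeded the cornea by 2-fold or more in the limbus, when 16.7% of all genes did. Compared with the conjunctiva, 1 member (B2M) remained at least 2-fold lower in the limbus, against 0.996% of all genes, and 1 (HLA-DPA1) was at least 2-fold higher, against 5.87% of all genes. The order of the 3 tissues stayed the same for each of the 10 genes. For GAPDH the 3′ over 5′ control ratio, a measure of how complete the amplified RNA was, stood at 3.12 in the limbus, 3.83 in the conjunctiva, and 4.58 in the cornea. The same ratio for ACTB had another order, with 11.8 in the limbus, 10.3 in the conjunctiva, and 11.2 in the cornea. The part of RNA quality in the values of the members was not tested.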

How the data were processed

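Total RNA of the limbus, the conjunctiva, and the cornea was amplified in 2 rounds by the authors, hybridized to Affymetrix human U133 Plus arrays, and normalized by RMA with the justRMA routine, each array being combined with the same set of outside arrays. No version is given in the sources used here. Deposited were linear intensities, 1 per probe set and tissue, with 0 missing values and 0 columns of other samples. They were used without further normalization.

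Gene names came from GEO's platform annotation, which can be old (41097 with 1 symbol, 1801 with several, and 11777 not named here), and only those with 1 symbol were used. Ratios, counts, and medians were computed with Python 3.11.15, numpy 2.4.6, and pandas 2.3.3, and plots were drawn with matplotlib 3.10.9. A gene was called apart at 2-fold. The counting was tested on simulated arrays. Named genes are all members, list genes at least 2-fold apart with a value of at least 100, the 5 genes nearest to the class II profile, and further list genes chosen after their values were seen. Aliases of 1 gene were counted once. The members and lists were chosen with earlier results of these data known. The number of arrays limits the precision, and no test was possible. Alternatives varied the pseudocount, the scaling, the probe set, the threshold, and the level.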

Additional observations from a re-analysis of the deposited data

How the results depend on the processing

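No paired analysis was possible because each tissue has 1 array, and no replicate could be left out. A value was taken as moved when it changed by more than 1.5-fold. By this rule a pseudocount of 32, quantile normalization of the 3 arrays, and division by the array median moved no count of members 2-fold apart. The count for the limbus and the cornea was 4 with the pseudocount and 6 with quantile normalization, in place of 5. These alternatives moved no median of the class II or class I members either. A minimum value of 100 and the removal of probe sets of possible cross-binding could not move these values. The brightest probe set of each member reached 100, and 0 of the 22 carry the suffix of possible cross-binding. The other lists and the tissue-preferred counts were not recomputed under these alternatives. Division by the hybridization controls shifted the median log2 ratio of all genes by 0.62 for the limbus over the cornea, 0.29 for the limbus over the conjunctiva, and 0.32 for the conjunctiva over the cornea. It moved the median of the class II genes for the limbus over the cornea to 1.68 and that of the class I genes to 1.56. Less the median of all genes, these were 1.11 and 0.99 on both scales. The count of members 2-fold apart became 9 in place of 5 for the limbus and the cornea and 2 in place of 5 for the limbus and the conjunctiva.

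With the median over all probe sets of a gene, 4 in place of 9 members were 2-fold apart between the conjunctiva and the cornea (3.69% of all genes at least 2-fold higher in the conjunctiva) and 3 in place of 5 between the limbus and the conjunctiva (1.3% of all genes at least 2-fold lower in the limbus). The median log2 ratio of the class I genes for the conjunctiva over the cornea was 0.65 in place of 1.68. Dim probe sets enter this median with the same weight as bright ones. At 1.5-fold, 9 members were apart in either direction between the limbus and each of the other tissues. Those apart from the conjunctiva included HLA-DPA1, which was higher in the limbus. At 3-fold, 3 set the limbus apart from the cornea and 0 set it apart from the conjunctiva. The shares of all genes at 1.5-fold and 3-fold were not computed, so these counts stand without a background. No member ratio of 2-fold or more changed sign under these alternatives. With the median over probe sets, 2 smaller ratios did, the log2 ratio of HLA-DPA1 for the limbus over the conjunctiva (-0.91 in place of 0.87) and that of CIITA for the limbus over the cornea (-0.10 in place of 0.67). Of 210 values of single members under the alternatives, 21 moved, 10 of them by the hybridization controls and 11 by the median over probe sets. The 210 include 30 values for the minimum of 100 and 30 for the suffix, which could not move. Division by the array median or by the hybridization controls shifts all genes of a contrast by the same constant. That constant alone set the labels of these values, and the 10 moved are the 10 members in the limbus over the cornea. Under the median over probe sets, HLA-DMA, HLA-DMB, and TAP1 could not move, since each has a single probe set. Ratios of values under 100 are uncertain, which bears on CIITA and on the cornea values of HLA-DMA and HLA-DPA1.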

Other observations

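Ligands and receptors that costimulate T cells did not share the order of the members. Of 7 genes measured, 1 was at least 2-fold higher in the conjunctiva than in the cornea (5.68% of all genes). It was the adhesion ligand ICAM1, at 181 in the limbus, 378 in the conjunctiva, and 183 in the cornea on its brightest probe set. On its other probe sets the ratio of the conjunctiva to the cornea was 1.56 and 0.814. CD80, a ligand of CD28, was highest in the limbus, at 106 compared with 64.2 in the conjunctiva and 49.6 in the cornea. CD274 (PD-L1), an inhibitory ligand, was also highest in the limbus, at 101 in the limbus, 73.7 in the conjunctiva, and 60.0 in the cornea. CD86 had 34.4 in the limbus, 83.0 in the conjunctiva, and 52.2 in the cornea and stayed under 100. The median log2 ratio of the 7 genes was -0.01 for the limbus over the cornea, -0.12 for the limbus over the conjunctiva, and 0.30 for the conjunctiva over the cornea.

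The CD1 molecules present lipids and pair with B2M. CD1C reached 129 in the limbus, 152 in the conjunctiva, and 84.8 in the cornea, and CD1A had 59.4 in the limbus, 83.9 in the conjunctiva, and 41.0 in the cornea. CD1B, CD1D, and CD1E were at 49.3 or lower in all tissues.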
